A study of Mus musculus with 6 samples.

Results

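The translation initiation and elongation factors are the proteins that bring the ribosome, the initiator tRNA and the mRNA together and then move the ribosome along the message. Their mRNAs were followed here in mouse liver after refeeding and after fasting. The members were chosen by symbol alone: genes whose symbol begins with Eif or Eef followed by a number, leaving out the eIF2 alpha kinases (Eif2ak), the eIF4E-binding proteins (Eif4ebp) and Eef1e1. This gave 53 of 10947 named genes. The rule itself uses no measured difference, but it was set with earlier results of these data known. The symbol rule also took in proteins that act on factors or share a name with them: the kinase Eef2k, the methyltransferases Eef2kmt and Eef1akmt1, the eIF4E transporter Eif4enif1, and Eif1ad, a protein with an eIF1A-like domain. The other members carry the names of the factors themselves or of their subunits.

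All livers came from male C57BL/6J mice that were 8 weeks old and were taken at 10 am. Refed mice had no food for 12 h from 10 am and then received a high-sucrose diet (69% sucrose, 10% fat) for 12 h from 10 pm. Fasted mice had no food for 12 h from 10 pm. Each group has 3 libraries made from total RNA of frozen liver with an mRNA library kit, numbered refed 5, 7 and 8 and fasted 1, 3 and 4, and values per library are given in that order throughout. Refeeding and the high-sucrose diet came together, so an effect of eating and an effect of that diet cannot be told apart, and the refed mice also had their fast at another time of day. Whether each library holds RNA of its own mouse is not said in the labels. The p-values therefore rest on the spread among these libraries, some of which may be technical.

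During initiation, eIF2 carries the initiator tRNA to the small ribosomal subunit in a GTP-bound form, and eIF2B recharges eIF2 with GTP after each round. eIF3 is a large scaffold on the small subunit, eIF4F binds the mRNA cap and unwinds the leader, eIF1, eIF1A and eIF5 govern the choice of start codon, and eIF5B joins the large subunit. eEF1 then delivers aminoacyl-tRNAs and eEF2 moves the ribosome by a codon. In liver, feeding is known to raise protein synthesis, largely through insulin and amino acid signals that act on eIF4E-binding proteins, eIF2B and the kinase of eEF2.

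Levels are in RPKM, reads scaled to transcript length and library size, so that genes can be set side by side. Reads in the genes that the authors' deposited table calls changed summed to between 26237934 (refed 8) and 33219013 (refed 7) per library, which is part of each library's depth. All 8 hepatocyte markers looked for were in the table, with a summed level of 52422 to 55356 RPKM in refed libraries and 53019 to 63677 RPKM in fasted libraries. Of these 8, 3 were called lower in refed liver as deposited (Tat, Cps1 and Hnf4a), 5 were after centring (also Apoa1 and Apoa2), and 0 were called higher. Alb, Ttr and Serpina1a were called under neither, with log2 fold changes of 0.05, 0.09 and −0.07 as deposited. Summed Kupffer cell markers (6 of 6 in the table) spanned 37.4 to 40.4 RPKM in refed libraries and 24.2 to 72.9 RPKM in fasted libraries, the highest being fasted 1, and stellate cell markers (5 of 5) spanned 52.1 to 65.7 RPKM in refed libraries and 37.3 to 70.6 RPKM in fasted libraries. Endothelial markers (5 of 5) summed to 34.2 to 41.6 RPKM in refed libraries and 30.9 to 33.5 RPKM in fasted libraries, without overlap, and 1 of the 5 (Oit3) was called higher. Cholangiocyte markers (5 of 5) spanned 21.3 to 29.6 RPKM in refed libraries and 17.9 to 27.0 RPKM in fasted libraries, and 3 of the 5 were called higher as deposited and 2 after centring. Neutrophil markers (2 of 4 in the table) reached at most 3.62 RPKM in refed libraries and 3.82 RPKM in fasted libraries, and the lymphocyte markers (0 of 6) were not in the table. Erythroid markers (2 of 4) summed to 52.9 to 60.9 RPKM in refed libraries and 40.9 to 61.7 RPKM in fasted libraries, and the single pancreatic acinar marker of 5 in the table (Cela1, called higher) had 5.84 to 8.11 RPKM in refed libraries and 3.95 to 5.02 RPKM in fasted libraries. No Kupffer cell, stellate cell, neutrophil or erythroid marker in the table was called. Their part in the results below was not tested. In whole tissue, fewer cells of a type and less of a marker's mRNA per cell cannot be told apart.

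Many of these factor mRNAs had a higher RPKM in refed liver, by modest amounts. Of the 53 members, 26 (49.1%) were higher in refed liver and 3 (5.66%) were lower at an adjusted p under 0.05, and 24 did not pass. Of all 10890 genes tested, 26.4% were called higher and 15.7% lower. The test was limma on log2(RPKM + 1) with Benjamini-Hochberg adjustment over all genes tested, a scale that understates the change of low genes. The median log2 fold change, refed over fasted, was 0.27 over the members and 0.10 over all genes tested, and 49 of 53 members had a positive value. Most changes were small: 9 members passed with an absolute log2 fold change of at least 0.5, a size that 23.5% of all genes tested reached, and only Eef2k passed with one of at least 1 (6.63% of all genes).

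The count of higher members depends on how the libraries are scaled to each other. As deposited, 62.7% of all calls were higher in refed liver. After each library was centred on its own median, 49.1% were. Centring left 16 members higher and 4 lower, against 20.1% and 20.8% of all genes tested, with a median log2 fold change of 0.18 over the members and 0.01 over all genes. TMM scaling gave 15 higher and 4 lower members, against 19.8% and 21.4% of all genes, and quantile normalization gave 18 and 3, against 19.9% and 21.0%. The 16, 15 and 18 were all among the 26. The count also fell when a library was left out, to 15 without refed 5 and 16 without refed 8, and the share of all genes called higher fell to 19.8% and 20.5% in those fits. Under all 4 scalings, 15 members remained higher, namely Eef2k, Eif2b3, Eif2s1, Eif2b4, Eif2s2, Eef1akmt1, Eif3d, Eef1g, Eif4a1, Eif3b, Eif4e, Eif5b, Eif6, Eif4a3 and Eif5a, and Eif4b, Eif5 and Eif1 remained lower. The groups did not overlap for 34 members with refed above fasted, or 64.2%, and for 4 with refed below, or 7.55%. The shares of all genes tested were 34.8% and 20.6%.

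**Figure D1:**
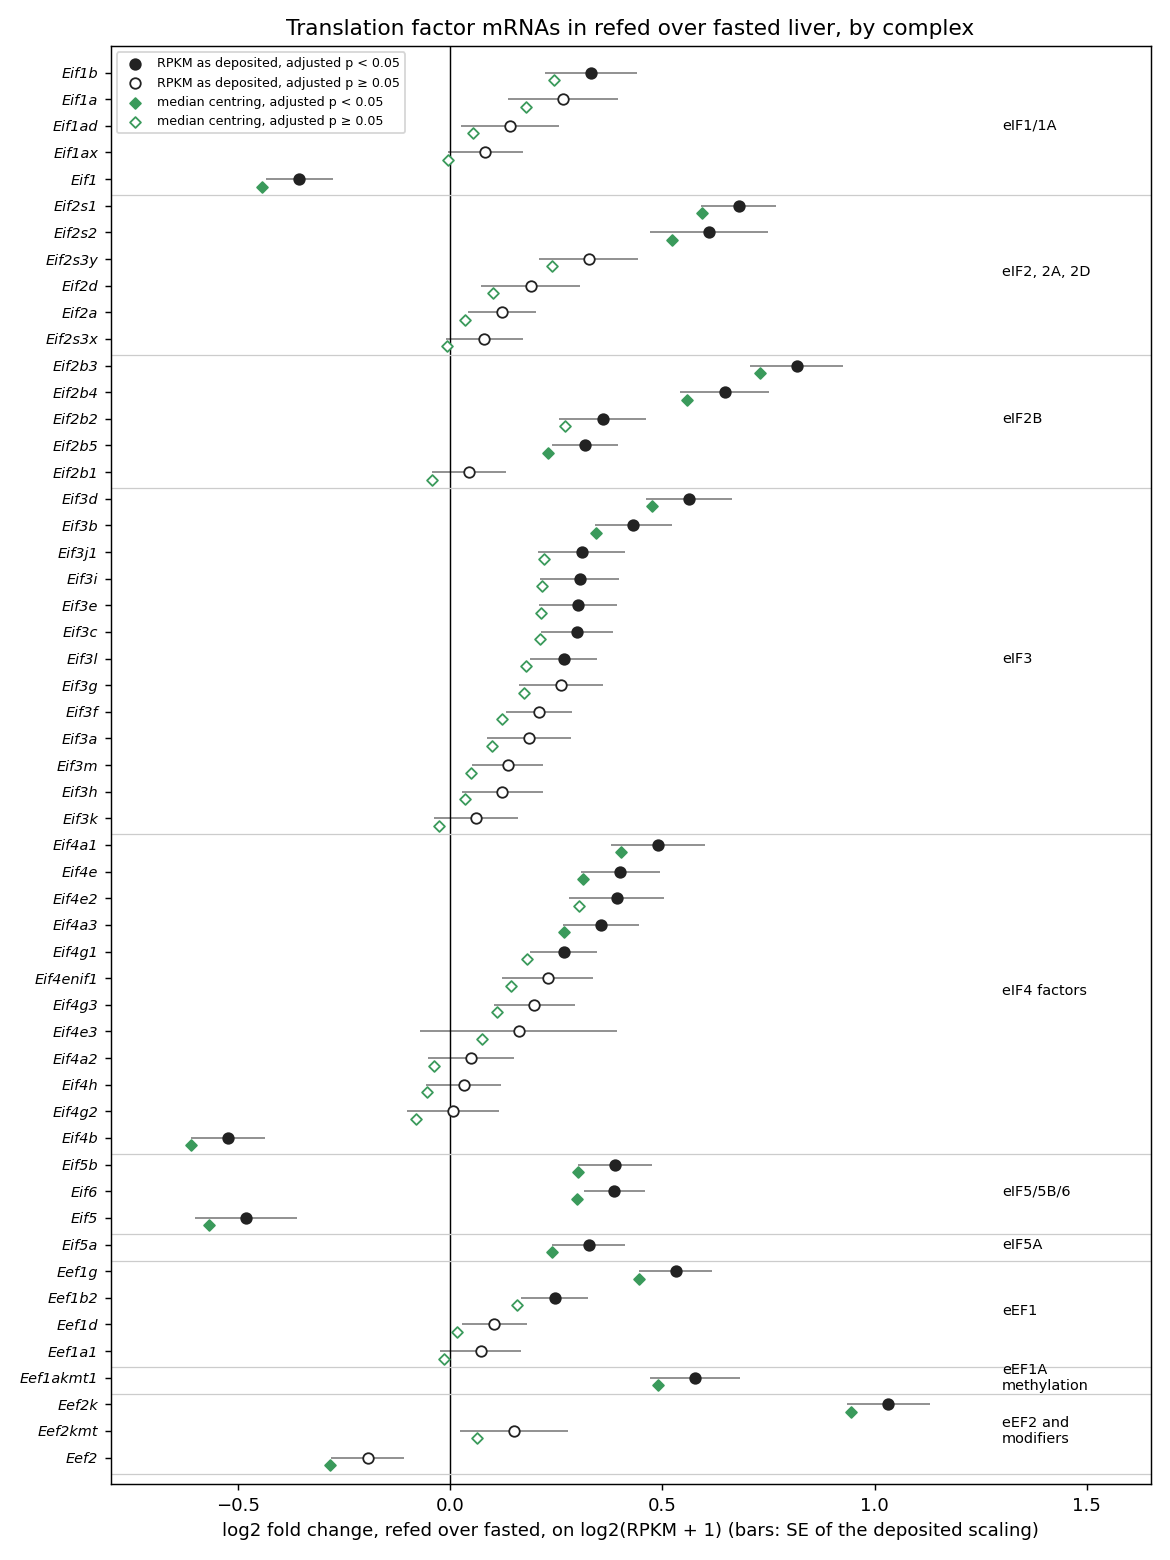
Log2 fold change of each of the 53 factor mRNAs, refed over fasted, on log2(RPKM + 1), grouped by complex (x axis: log2 fold change; circles: RPKM as deposited with bars of 1 SE; diamonds: after median centring; filled: adjusted p under 0.05). Eif2b3, Eif2s1, Eif2b4 and Eif2s2 lie farthest right among the initiation factors, Eef2k has the largest value of all, and Eif4b, Eif5, Eif1 and Eef2 lie left of 0 under both scalings.

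The factors were abundant mRNAs. The median member had a mean of 26.6 RPKM over the 6 libraries, against 6.83 RPKM for the median gene tested, and 48 of 53 lay above that gene. Eef1a1, the GTPase that delivers aminoacyl-tRNA, was the highest, with 792, 759 and 805 RPKM in refed liver and 711, 719 and 815 RPKM in fasted liver. Together Eef1a1, Eef2 and Eif5a, all of which act in elongation, held 45.1% to 45.5% of the summed factor RPKM in refed libraries and 47.7% to 48.9% in fasted libraries. The summed RPKM of all 53 members was 3231 ± 87.2 in refed liver and 2970 ± 173 in fasted liver (SD, n = 3 each). At the low end stood Eif4e3, a relative of the cap-binding protein, with 1.88, 2.07 and 1.14 RPKM in refed liver and 2.25, 0.755 and 1.37 RPKM in fasted liver. Subunits that sit in one complex differed in mRNA level: the highest eIF3 subunit stood 5.42-fold above the lowest in refed liver and 5.69-fold in fasted liver, and for eIF2B these values were 3.28-fold and 3.96-fold.

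**Figure D2:**
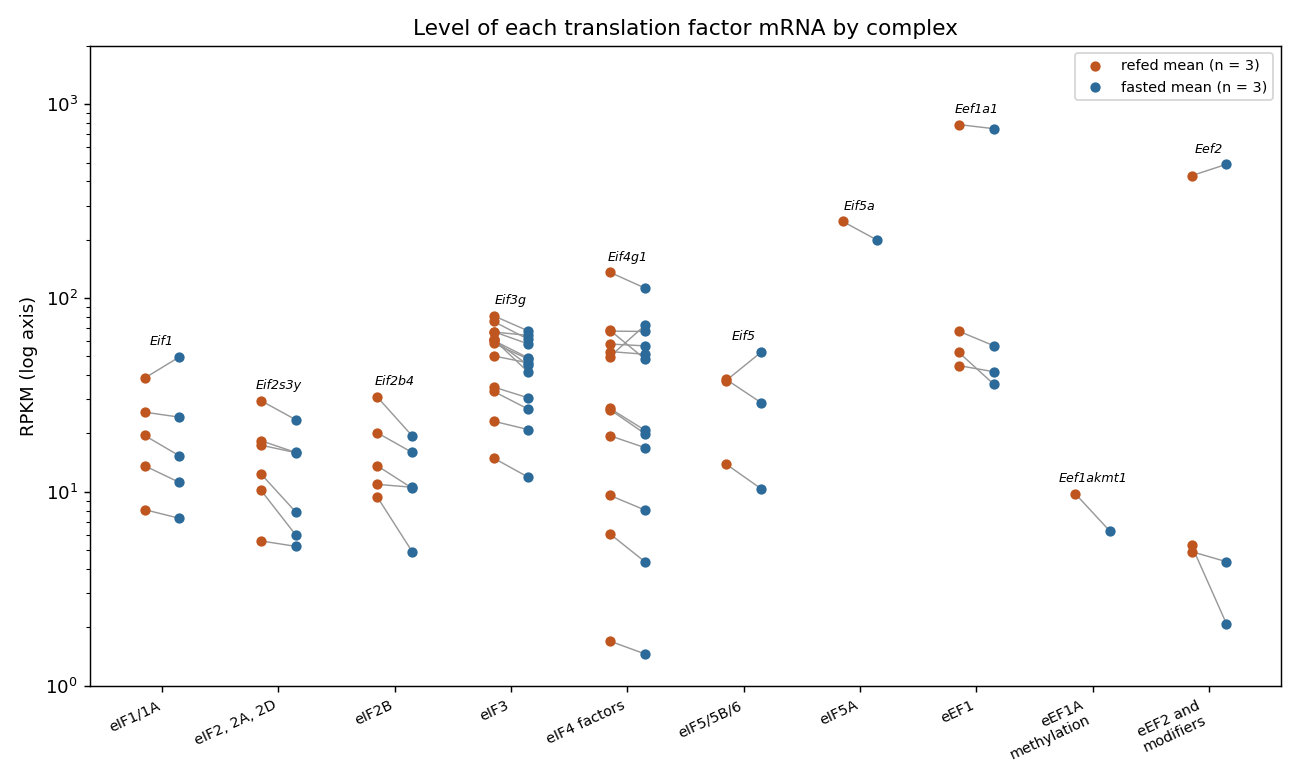
Mean RPKM of each factor mRNA by complex (y axis: RPKM, log axis; left point of each pair: refed mean, right point: fasted mean, n = 3 each; the name is that of the member with the highest mean). Eef1a1 and Eef2 stand highest, while most eIF2, eIF2B and eIF1 family members lie between 5 and 50 RPKM.

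eIF2 is made of an alpha, a beta and a gamma subunit. Eif2s1, the alpha subunit whose phosphorylation shuts initiation down, had 10.6, 10.7 and 9.34 RPKM in refed liver and 5.64, 5.93 and 6.39 RPKM in fasted liver. Every refed library lay above every fasted one. The refed mean was 1.70 times the fasted mean (log2 fold change 0.68 ± 0.09, SE here and below, adjusted p = 0.0008). Eif2s2, the beta subunit, had 11.9, 11.8 and 13.5 RPKM in refed liver and 6.48, 7.29 and 9.83 RPKM in fasted liver. Again the groups did not overlap, with fasted 4 the nearest to the refed libraries. The log2 fold change was 0.61 ± 0.14 (adjusted p = 0.0096). The gamma subunit, which binds the tRNA and GTP, has an X-linked and a Y-linked copy in mouse. The Y-linked Eif2s3y was the most abundant of the eIF2 genes, with 30.1, 30.4 and 28.1 RPKM in refed liver and 22.1, 20.7 and 27.9 RPKM in fasted liver. The groups were separated by the narrow gap between refed 8 and fasted 4, and the gene did not pass (log2 fold change 0.33 ± 0.12, adjusted p = 0.053). Without fasted 4 it did (0.45, adjusted p = 0.0085). It did not pass after centring (0.24, adjusted p = 0.1), with TMM (0.22, adjusted p = 0.12) or in the other leave-outs (adjusted p = 0.08 to 0.16). Eif2s3x had 5.95, 5.29 and 5.50 RPKM in refed liver and 4.73, 5.60 and 5.36 RPKM in fasted liver, with overlapping groups (adjusted p = 0.51). These copies are near-identical, so the split of reads between them is uncertain. Eif2a and Eif2d, which can bring tRNA to the ribosome without eIF2, did not pass (log2 fold changes 0.12 and 0.19, adjusted p = 0.25 and 0.22). The counts for these 6 genes were 2 higher and 0 lower as deposited, after centring and with TMM. Of all genes tested, 26.4%, 20.1% and 19.8% were called higher under these scalings.

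Of the 5 eIF2B subunits, 4 were called higher as deposited, 3 after centring and 2 with TMM, and 0 were called lower. The shares of all genes tested called higher were 26.4%, 20.1% and 19.8%. Eif2b3, the gamma subunit of the catalytic part, had 10.4, 9.44 and 8.41 RPKM in refed liver and 5.62, 4.58 and 4.55 RPKM in fasted liver. The lowest refed library was well above the highest fasted one. The difference of 0.82 ± 0.11 on the log2 scale (adjusted p = 0.00093) was the largest among the initiation factors. Its second transcript, which can share reads with the kept one, gave a ratio of 1.95 beside 1.92. Eif2b4, the delta subunit of the regulatory part, had 30.1, 30.7 and 31.8 RPKM in refed liver and 17.5, 18.4 and 22.5 RPKM in fasted liver. Here too the groups were apart, and the log2 fold change was 0.65 ± 0.10 (adjusted p = 0.0021). Eif2b5, the catalytic epsilon subunit, rose by less (20.2 ± 1.27 RPKM in refed liver and 16.0 ± 0.0507 RPKM in fasted liver, SD, n = 3 each, log2 fold change 0.32 ± 0.08, adjusted p = 0.014). Its call was lost with TMM (0.21, adjusted p = 0.056), without refed 5 (adjusted p = 0.056) and without refed 8 (adjusted p = 0.051). Eif2b2, the beta subunit, was called as deposited (0.36 ± 0.10, adjusted p = 0.023) but not after centring (0.27, adjusted p = 0.085) nor without refed 5 (0.057), refed 8 (0.077) or fasted 4 (0.052). Eif2b1, the alpha subunit, had 9.97, 11.5 and 11.3 RPKM in refed liver and 9.93, 10.8 and 10.9 RPKM in fasted liver. Its groups overlapped and it did not pass (0.04 ± 0.09, adjusted p = 0.71). Summed over the 5 subunits, eIF2B mRNA was 85.0 ± 1.91 RPKM in refed liver and 61.4 ± 1.45 RPKM in fasted liver (SD, n = 3 each). The ratio of summed eIF2 to summed eIF2B mRNA was 0.679 ± 0.0281 in refed liver and 0.694 ± 0.0797 in fasted liver (SD, n = 3 each, exact two-sided permutation p = 0.8). Fasted 4 had 0.786, against 0.647 and 0.648 in fasted 1 and 3. Eif2s3y, whose read split is uncertain, is the largest term of the eIF2 sum. That p does not show that the balance stayed the same.

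**Figure D3:**
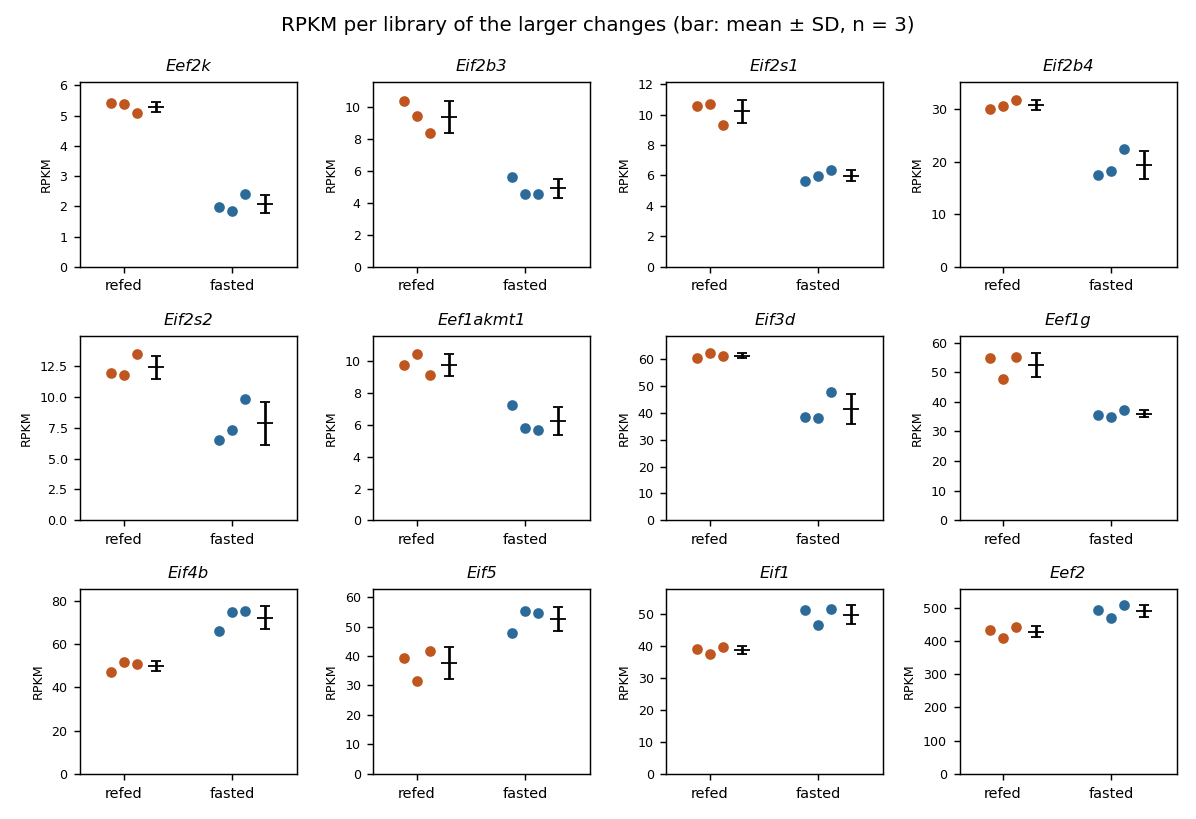
RPKM per library of the members with the larger changes and of Eef2 (y axes: RPKM from 0; points: refed 5, 7 and 8 on the left and fasted 1, 3 and 4 on the right of each panel; bar: mean ± SD, n = 3). The groups do not overlap in any panel; refed libraries are higher in the 8 panels of the upper rows and lower in Eif4b, Eif5, Eif1 and Eef2.

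Eif1 and Eif5, which act on start codon choice, fell. Eif1, which guards against initiation at wrong codons, had 38.9, 37.3 and 39.6 RPKM in refed liver and 51.1, 46.4 and 51.6 RPKM in fasted liver. All refed libraries were below all fasted ones. The log2 fold change was −0.36 ± 0.08 (adjusted p = 0.009), and the call held in every setting tried. Eif5, the GTPase-activating protein of eIF2, which counteracts eIF1, had 39.4, 31.5 and 41.8 RPKM in refed liver and 47.7, 55.4 and 54.5 RPKM in fasted liver. The groups did not overlap, with refed 7 the lowest library. Its log2 fold change was −0.48 ± 0.12 (adjusted p = 0.014), and the call was lost without fasted 3 (−0.44, adjusted p = 0.05, just above the threshold before rounding). Eif1b, a close copy of Eif1, had 17.8, 21.6 and 19.2 RPKM in refed liver and 14.2, 14.5 and 17.4 RPKM in fasted liver. Refed libraries were above fasted ones, opposite to Eif1 (log2 fold change 0.33 ± 0.11, adjusted p = 0.04). The Eif1b call was lost after centring (0.24, adjusted p = 0.077) and without refed 7, refed 8, fasted 1 or fasted 3 (0.12, 0.083, 0.1 and 0.11), and reads shared with Eif1 could move either value. Within a library, where scaling cancels, Eif1 was 1.99 ± 0.238 times Eif1b in refed liver and 3.26 ± 0.320 times in fasted liver (SD, n = 3 each, exact two-sided permutation p = 0.1, the smallest that 3 against 3 allows). Since both genes had already separated in opposite directions, that p was fixed in advance and adds no evidence. The eIF1A genes Eif1a and Eif1ax and the related Eif1ad did not pass, with log2 fold changes of 0.27, 0.08 and 0.14 (adjusted p = 0.13, 0.48 and 0.36), and Eif1ax had a value just below 0 after centring.

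Eif5b and Eif6, factors of subunit joining and of the large subunit, rose. Eif5b, the GTPase of subunit joining, had 13.0, 14.3 and 14.3 RPKM in refed liver and 9.80, 10.0 and 11.3 RPKM in fasted liver, without overlap (log2 fold change 0.39 ± 0.09, adjusted p = 0.0091). Eif6, which keeps the large subunit from joining too early and takes part in its assembly, had 38.5, 37.3 and 38.2 RPKM in refed liver and 29.3, 27.8 and 29.4 RPKM in fasted liver. This was among the tightest separations of the set (0.39 ± 0.07, adjusted p = 0.0041). Both calls held in every setting tried.

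In eIF3, 7 of 13 subunits were called higher and 0 lower as deposited, against 26.4% and 15.7% of all genes tested. After centring and with TMM 2 were called higher, namely Eif3d and Eif3b. That is not above the shares of all genes tested under these scalings, 20.1% and 19.8%. With quantile normalization Eif3c (adjusted p = 0.046) and Eif3i (0.05, just under the threshold before rounding) were called as well. The share of all genes tested was then 19.9%. Eif3d, a subunit that can itself bind the cap of some mRNAs, had 60.4, 62.2 and 61.2 RPKM in refed liver and 38.3, 38.1 and 47.7 RPKM in fasted liver. Refed libraries lay within 2 RPKM of each other and above the fasted ones, of which fasted 4 was the highest. The log2 fold change was 0.56 ± 0.10 (adjusted p = 0.0035). Eif3b, a core scaffold subunit, had 62.8, 55.6 and 64.5 RPKM in refed liver and 42.2, 44.7 and 47.9 RPKM in fasted liver, without overlap (0.43 ± 0.09, adjusted p = 0.007). Eif3g, the most abundant subunit and an RNA-binding one, had 80.4, 76.5 and 86.2 RPKM in refed liver and 62.4, 65.0 and 75.4 RPKM in fasted liver. Its groups were barely apart and it did not pass (0.26 ± 0.10, adjusted p = 0.064), although it did without fasted 4 (0.34, adjusted p = 0.024). Eif3g did not pass after centring (0.17, adjusted p = 0.13), with TMM (0.15, adjusted p = 0.17) or in the other leave-outs (adjusted p = 0.073 to 0.18). The other 5 called subunits, Eif3c, Eif3e, Eif3i, Eif3j1 and Eif3l, had log2 fold changes of 0.27 to 0.31 and adjusted p of 0.024 to 0.042 as deposited, and each lost its call after centring (0.06 to 0.098). Each also lost it without refed 5 (0.067 to 0.089), refed 8 (0.063 to 0.13) or fasted 1 (0.058 to 0.1). Eif3e and Eif3j1 lost it without refed 7 as well (0.08 and 0.072), Eif3e, Eif3i and Eif3l without fasted 3 (0.084 to 0.092), and Eif3j1 without fasted 4 (0.065). Eif3a, Eif3f, Eif3h, Eif3k and Eif3m did not pass (0.06 to 0.21), and Eif3k, whose groups overlapped, was below 0 after centring (−0.03). The summed eIF3 mRNA was 688 ± 23.5 RPKM in refed liver and 571 ± 43.8 RPKM in fasted liver (SD, n = 3 each). The median log2 fold change of the 13 subunits was 0.27 as deposited and 0.18 after centring.

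The eIF4 genes split. Eif4a1, the main RNA helicase of eIF4F, had 72.5, 63.2 and 69.1 RPKM in refed liver and 45.2, 44.3 and 56.1 RPKM in fasted liver. The groups were apart and the log2 fold change was 0.49 ± 0.11 (adjusted p = 0.0094). After centring, the Eif4a1 call was lost without refed 5 (adjusted p = 0.055) or fasted 3 (0.05, just above the threshold before rounding). Eif4a2, its paralog, had 50.4, 56.2 and 52.3 RPKM in refed liver and 45.0, 56.1 and 52.8 RPKM in fasted liver, with overlapping groups (0.05 ± 0.10, adjusted p = 0.72). Eif4a1 was thus 1.29 ± 0.159 times Eif4a2 in refed libraries and 0.953 ± 0.143 times in fasted libraries (SD, n = 3 each, exact two-sided permutation p = 0.1, the smallest possible), and close copies can share reads. Eif4e, the cap-binding subunit, was a low mRNA with 6.10, 5.68 and 6.43 RPKM in refed liver and 4.66, 4.52 and 3.90 RPKM in fasted liver. Refed libraries were all above fasted ones (0.40 ± 0.09, adjusted p = 0.01). Eif4e stayed called after centring (0.31, adjusted p = 0.037) and with TMM (0.31, adjusted p = 0.041). With centring and a library left out together, its call held only without fasted 1 (adjusted p = 0.055 to 0.11 in the others). Eif4g1, the scaffold of eIF4F and the most abundant of the eIF4 genes, had 141, 131 and 135 RPKM in refed liver and 108, 118 and 113 RPKM in fasted liver. The groups did not overlap, but the call as deposited (0.27 ± 0.08, adjusted p = 0.028) was lost after centring (0.18, adjusted p = 0.1) and without refed 5, refed 8, fasted 1 or fasted 4 (adjusted p = 0.11, 0.069, 0.064 and 0.051). Eif4a3, the helicase of the exon junction complex and so not an initiation helicase, rose (0.36 ± 0.09, adjusted p = 0.015), with a call that was lost without fasted 3 (0.31, adjusted p = 0.053). Eif4e2, a cap-binding repressor, was called as deposited (0.39 ± 0.11, adjusted p = 0.025) but not after centring (0.30, adjusted p = 0.057), nor without refed 5, refed 7, fasted 1 or fasted 3 (adjusted p = 0.075, 0.076, 0.054 and 0.083).

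Eif4b, an RNA-binding stimulator of the helicase and a target of growth signalling, had the largest fall of any member. Its RPKM was 47.1, 51.6 and 50.8 in refed liver and 66.0, 75.0 and 75.5 in fasted liver. The highest refed library was well below the lowest fasted one. The refed mean was 0.691 of the fasted mean (log2 fold change −0.52 ± 0.09, adjusted p = 0.0025), and the call held in every setting tried. Eif4h, which shares the helicase-stimulating role, had 58.8, 54.5 and 60.5 RPKM in refed liver and 53.3, 55.1 and 61.6 RPKM in fasted liver, with overlapping groups (0.03 ± 0.09, adjusted p = 0.8). Eif4b was 0.864 ± 0.0753 times Eif4h in refed libraries and 1.28 ± 0.0752 times in fasted libraries (SD, n = 3 each, exact two-sided permutation p = 0.1, the smallest possible). Eif4g2, an eIF4G relative that does not bind eIF4E, gave 0.01 ± 0.11 (adjusted p = 0.97). Eif4g3, Eif4e3 and Eif4enif1 did not pass either (0.20, 0.16 and 0.23, adjusted p = 0.13, 0.61 and 0.12). In all, 5 of the 12 eIF4 genes were called higher and 1 lower as deposited, and 3 higher and 1 lower after centring. Shares of all genes tested were 26.4% and 15.7% as deposited, and 20.1% and 20.8% after centring.

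The genes of both elongation GTPases, Eef1a1 and Eef2, did not pass as deposited, while Eef1g and Eef2k rose. Eef1a1 (values above) had overlapping groups and a log2 fold change of 0.07 ± 0.10 (adjusted p = 0.58), which turned to −0.02 after centring. Reads from its processed copies elsewhere in the genome make its level uncertain. Eef1g, a subunit of the exchange factor that recharges eEF1A, had 54.6, 47.7 and 55.0 RPKM in refed liver and 35.6, 34.9 and 37.2 RPKM in fasted liver. The groups were well apart (log2 fold change 0.53 ± 0.09, adjusted p = 0.0022). Eef1b2, another subunit of that exchange factor, was called as deposited (0.25 ± 0.08, adjusted p = 0.036) but not after centring (0.16, adjusted p = 0.1), and its call held among leave-outs only without fasted 4 (adjusted p = 0.056 to 0.12 in the other leave-outs). Eef1d, a further subunit, did not pass (0.10 ± 0.08, adjusted p = 0.31). Eef1akmt1, which methylates a lysine of eEF1A, had 9.75, 10.5 and 9.12 RPKM in refed liver and 7.26, 5.79 and 5.71 RPKM in fasted liver. Refed libraries were all above fasted ones (0.58 ± 0.11, adjusted p = 0.0038). Eif5a, the hypusine-bearing factor that keeps ribosomes moving over difficult stretches, had 254, 247 and 247 RPKM in refed liver and 186, 195 and 215 RPKM in fasted liver. The groups did not overlap (0.33 ± 0.09, adjusted p = 0.018), and the call was lost without refed 5 (0.31, adjusted p = 0.069) and without fasted 3 (0.32, adjusted p = 0.059). All 9 of its transcripts gave a ratio of 1.25 or 1.26, but transcripts of a gene can share reads and are not independent.

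Eef2k, the kinase that phosphorylates eEF2 and so slows elongation, had the largest change of the 53. It had 5.41, 5.38 and 5.10 RPKM in refed liver and 1.99, 1.84 and 2.42 RPKM in fasted liver. The lowest refed library was above every fasted one by a wide margin. The refed mean was 2.54 times the fasted mean, and the log2 fold change was 1.03 ± 0.10 (adjusted p = 0.00018). In the authors' deposited table the gene (mouse build mm9, chromosome 7, 127986345 to 128050733, plus strand) had 1245, 1311 and 1042 reads in refed libraries and 495, 442 and 550 reads in fasted libraries, with a log2 fold change of 1.07. Its substrate Eef2 had 434, 410 and 440 RPKM in refed liver and 493, 469 and 507 RPKM in fasted liver. The groups did not overlap, with refed below. As deposited Eef2 did not pass (−0.19 ± 0.09, adjusted p = 0.1), nor did it with quantile normalization, where its log2 fold change was −0.04 (adjusted p = 0.73). It passed as lower after centring (−0.28, adjusted p = 0.024) and with TMM (−0.31, adjusted p = 0.018). The centred call was lost in the fits without refed 5, refed 7, refed 8, fasted 3 or fasted 4 (adjusted p = 0.051 to 0.068). The authors' deposited table lists Eef2 as lower (log2 fold change −0.31). Eef2k mRNA per Eef2 mRNA was 0.0124 ± 0.000771 in refed libraries and 0.00425 ± 0.000463 in fasted libraries (SD, n = 3 each, exact two-sided permutation p = 0.1, the smallest possible). With Eef2k above and Eef2 below in refed libraries without overlap, that p was fixed in advance and adds no evidence. Eef2kmt, a lysine methyltransferase of eEF2, did not pass (0.15 ± 0.13, adjusted p = 0.38).

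The stretch of 250 bases before an annotated start is shown for the members whose change was largest in each direction (Eef2k and Eif4b). It is also shown for the eIF4F helicase Eif4a1 and for Eef2, which hold the E-box CACGTG. The shown stretches overstate how common that motif is among the members. Those of Eif2b4, Eif1, Eif5 and the other Eef2k starts were also looked at and hold no CACGTG. The sequences are RefSeq's, from build GRCm38.p6, and are written 5′ to 3′ on the gene's strand, with capitals marking matches to the motifs named below. They lie at chr7:120842581-120842830, plus strand, the first of 3 Eef2k starts, at chr11:69672424-69672673, minus strand, for Eif4a1, at chr10:81176381-81176630, plus strand, for Eef2 and at chr15:102073523-102073772, plus strand, for Eif4b.
Eef2k: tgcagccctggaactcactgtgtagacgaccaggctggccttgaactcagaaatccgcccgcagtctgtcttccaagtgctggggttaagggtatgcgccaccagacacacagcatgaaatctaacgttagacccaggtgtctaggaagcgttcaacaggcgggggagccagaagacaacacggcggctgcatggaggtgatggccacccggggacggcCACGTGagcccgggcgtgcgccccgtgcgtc
Eif4a1: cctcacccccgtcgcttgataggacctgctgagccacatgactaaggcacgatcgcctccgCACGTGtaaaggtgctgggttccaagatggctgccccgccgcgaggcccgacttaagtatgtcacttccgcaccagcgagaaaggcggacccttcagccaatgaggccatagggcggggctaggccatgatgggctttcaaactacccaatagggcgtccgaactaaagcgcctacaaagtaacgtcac
Eef2: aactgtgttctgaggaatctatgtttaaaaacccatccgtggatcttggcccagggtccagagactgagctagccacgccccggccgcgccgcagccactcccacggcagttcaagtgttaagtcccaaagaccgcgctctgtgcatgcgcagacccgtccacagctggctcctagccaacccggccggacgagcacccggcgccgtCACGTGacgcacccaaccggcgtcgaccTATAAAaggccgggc
Eif4b: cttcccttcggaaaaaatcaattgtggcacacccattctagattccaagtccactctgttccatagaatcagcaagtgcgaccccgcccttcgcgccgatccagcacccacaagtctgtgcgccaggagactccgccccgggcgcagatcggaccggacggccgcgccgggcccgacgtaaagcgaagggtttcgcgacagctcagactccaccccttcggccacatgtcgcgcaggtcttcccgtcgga

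The first base of CACGTG lies 31 bases before the start in Eef2k, 189 before it in Eif4a1 and 43 before it in Eef2, where TATAAA follows at 15 bases before the start, and the Eif4b stretch holds no match. The motifs searched, on both strands and without overlap in these stretches, were CACGTG (bound by basic helix-loop-helix factors such as MYC, USF and MLXIPL), CCGGAAGT (an ETS motif), TATAAA and TGATGNAA (an ATF4 motif). Windows ran from 250 bases before to 50 after each start, and 42 of the 53 members had at least 1. CACGTG occurred in 11 of these 42 genes, or 26.2%, against 12.3% of the 8608 tested genes with a window and 8.09% of all 27025 genes. It was held by 6 of the 20 members called higher (Eef2k, Eif1b, Eif4a1, Eif4e, Eif4g1 and Eif5a), by 5 of the 19 that did not pass and by 0 of the 3 called lower. CCGGAAGT occurred in 7 of the 42 genes, or 16.7%, against 9.64% of tested genes, and all 7 (Eef1b2, Eif2b2, Eif2b4, Eif3d, Eif3l, Eif4e2 and Eif5a) were among the members called higher as deposited, of which Eif2b4, Eif3d and Eif5a were also called under the other scalings. How many of all tested genes holding CACGTG or CCGGAAGT were called higher was not counted. The counts by call therefore have no background, and the motifs were chosen after values were seen, so no link to refeeding can be read from them. TATAAA occurred in 11.9% of the members and 9.06% of tested genes, and TGATGNAA in 4.76% and 2.68%. These are matches of letters, given as a description with no test, and no binding was measured.

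The authors' deposited table of genes called at a false discovery rate under 0.05 holds 17 of the 53 members (32.1%, against 36.4% of all genes tested here). In it 13 are higher in refed liver (24.5%, against 16.9%) and 4 are lower (7.55%, against 19.6%). The lower ones are Eif4b, with a log2 fold change of −0.64, Eif5 with −0.58, Eif1 with −0.50 and Eef2 with −0.31 in that table. Of the 17, 16 were also called here on RPKM as deposited in the same direction, and Eef2 was the exception. Sizes differed with the scaling. For Eef1g, Eif3d and Eif4b the authors' log2 fold changes were 0.42, 0.45 and −0.64. Those here were 0.53, 0.56 and −0.52 as deposited and 0.42, 0.45 and −0.63 with TMM. Some lower mRNAs lay nearer the deposited values, such as Eif4e (0.41 in that table, 0.40 as deposited, 0.31 with TMM). The 13 members called here as deposited and not listed there are Eef1akmt1, Eef1b2, Eif1b, Eif2b2, Eif2b5, Eif3c, Eif3e, Eif3i, Eif3j1, Eif3l, Eif4a3, Eif4g1 and Eif5a. Both sets of calls come from the same libraries.

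The partners of these factors were looked at in lists of genes named for their role. The counts below stand beside shares of all genes tested of 26.4% higher and 15.7% lower as deposited. After centring these shares were 20.1% and 20.8%. The lists are short and none was tested as a set. The eIF4E-binding proteins, which keep eIF4E from joining eIF4G, had 2 of 3 genes lower in refed liver as deposited and 3 of 3 after centring. Eif4ebp3 had 20.3, 23.1 and 32.4 RPKM in refed liver and 108, 65.5 and 61.6 RPKM in fasted liver. The groups were far apart, fasted 1 being the highest, and the log2 fold change was −1.57 ± 0.24 (adjusted p = 0.0015). Eif4ebp2 had 29.2, 30.0 and 34.7 RPKM in refed liver and 49.2, 59.0 and 49.6 RPKM in fasted liver, without overlap (−0.73 ± 0.11, adjusted p = 0.0013). Eif4ebp1 had 31.4, 34.7 and 32.4 RPKM in refed liver and 42.9, 35.2 and 37.5 RPKM in fasted liver. Its groups were barely apart, and it did not pass as deposited (−0.22 ± 0.10, adjusted p = 0.095) but did after centring (−0.31, adjusted p = 0.036). The summed mRNA of the 3 binding proteins per Eif4e mRNA was 14.7 ± 1.27 in refed libraries and 38.8 ± 3.85 in fasted libraries (SD, n = 3 each, exact two-sided permutation p = 0.1, the smallest possible). All 3 lay below and Eif4e above in refed libraries without overlap, so that p was fixed in advance and adds no evidence.

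**Figure D4:**
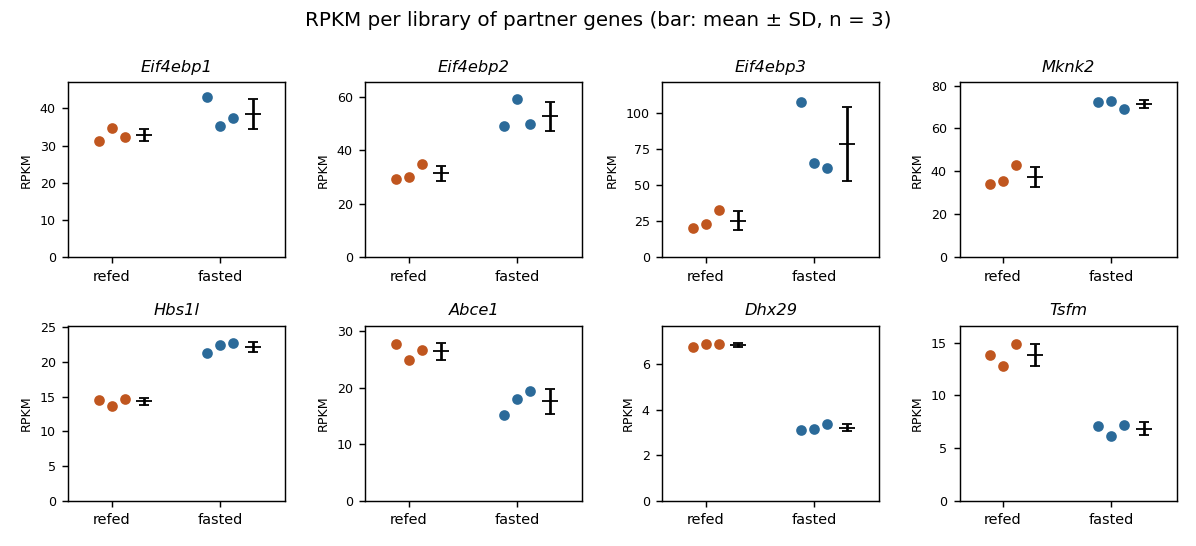
RPKM per library of partner genes of the translation factors (y axes: RPKM from 0; points: refed 5, 7 and 8 on the left and fasted 1, 3 and 4 on the right of each panel; bar: mean ± SD, n = 3). Refed libraries are lower for Eif4ebp1, Eif4ebp2, Eif4ebp3, Mknk2 and Hbs1l and higher for Abce1, Dhx29 and Tsfm, with no overlap between the groups.

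Among kinases and repressors of initiation, 1 of 8 rose and 2 fell as deposited (1 and 4 after centring). Mknk2, a kinase that phosphorylates eIF4E, had 34.1, 35.4 and 42.8 RPKM in refed liver and 72.6, 72.7 and 69.2 RPKM in fasted liver. All refed libraries stood far below the fasted ones (−0.92 ± 0.10, adjusted p = 0.00034). Mtor, the kinase that acts on the eIF4E-binding proteins, fell (−0.37 ± 0.09, adjusted p = 0.013), and Larp1, an mRNA-binding repressor downstream of it, rose (0.36 ± 0.09, adjusted p = 0.012). Of the 4 eIF2 alpha kinases, the amino acid sensor Eif2ak4 rose (0.41 ± 0.09, adjusted p = 0.0074) and the heme-regulated Eif2ak1 fell (−0.30 ± 0.08, adjusted p = 0.021). The Eif2ak1 call was lost without refed 5 (adjusted p = 0.085), refed 7 (0.063) or fasted 3 (0.064). Eif2ak2 and Eif2ak3 did not pass (0.09 and 0.07, adjusted p = 0.57 and 0.73), and neither did any of the 5 eIF2 alpha phosphatase genes as deposited (1 was lower after centring, Ppp1cc). Of the 5 poly(A)-binding genes and partners, Paip1, a stimulator of initiation, was called lower (−0.35 ± 0.10, adjusted p = 0.026), and that call was lost without refed 5, refed 7, fasted 3 or fasted 4 (adjusted p = 0.076 to 0.083).

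Termination and recycling genes moved both ways, with 3 of 5 measured genes higher and 1 lower as deposited, and 3 and 2 after centring. Abce1, which splits ribosomes after termination, had 27.8, 24.8 and 26.7 RPKM in refed liver and 15.2, 18.1 and 19.5 RPKM in fasted liver, without overlap (0.57 ± 0.10, adjusted p = 0.0037). Pelo, which frees stalled ribosomes, had 15.1, 17.3 and 19.7 RPKM in refed liver and 9.16, 12.1 and 12.0 RPKM in fasted liver, also without overlap (0.61 ± 0.13, adjusted p = 0.0084). Hbs1l, the GTPase that works with Pelo, went the opposite way. It had 14.5, 13.7 and 14.6 RPKM in refed liver and 21.3, 22.4 and 22.7 RPKM in fasted liver (−0.60 ± 0.07, adjusted p = 0.00069). Gspt1, a release factor, was called higher (0.33 ± 0.08, adjusted p = 0.014), and the call was lost with TMM (adjusted p = 0.051) and without refed 5 (0.058). Among reinitiation and related factors, 2 of 7 measured genes were higher as deposited and 1 after centring. Dhx29, a helicase that helps the small subunit through structured leaders, had 6.73, 6.87 and 6.85 RPKM in refed liver and 3.12, 3.14 and 3.37 RPKM in fasted liver. Libraries of a group were nearly equal, and the refed mean was 2.12 times the fasted mean (0.89 ± 0.08, adjusted p = 0.00012). The other, Mcts2, was called as deposited only (0.31 ± 0.10, adjusted p = 0.035, against 0.074 after centring).

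The enzymes that build diphthamide on eEF2 had 3 of 7 genes higher as deposited and 2 after centring. Dnajc24, a cofactor of the pathway, had 4.61, 4.57 and 4.23 RPKM in refed liver and 2.09, 2.98 and 2.85 RPKM in fasted liver, without overlap (0.60 ± 0.12, adjusted p = 0.0047). Dph2 rose by 0.47 ± 0.11 on the log2 scale (adjusted p = 0.012), and Dph3 lost its call after centring (adjusted p = 0.044 as deposited, 0.086 centred). Of the hypusine enzymes that modify eIF5A, 1 of 2, Dhps, was called as deposited only (0.36 ± 0.12, adjusted p = 0.04, against 0.092 after centring), and Dohh was not called (−0.11 ± 0.08, adjusted p = 0.34). Mitochondrial translation factors had 6 of 10 genes higher and 0 lower as deposited, and 3 higher after centring. Tsfm, the exchange factor of mitochondrial elongation factor Tu, had 13.8, 12.8 and 14.9 RPKM in refed liver and 7.13, 6.18 and 7.24 RPKM in fasted liver. The groups were far apart (0.92 ± 0.09, adjusted p = 0.00025). Gfm1, the mitochondrial translocase, had 49.6, 46.6 and 46.6 RPKM in refed liver and 28.9, 34.4 and 33.3 RPKM in fasted liver, without overlap (0.55 ± 0.09, adjusted p = 0.0022). Tufm itself rose by 0.45 ± 0.12 on the log2 scale (adjusted p = 0.017), and without refed 8 its adjusted p was 0.058. The calls of Gfm2, Mtrf1 and Mrrf were lost after centring (adjusted p = 0.086, 0.056 and 0.054). These genes, with Dph3, Dhps and Mcts2, each lost their call in 5 of the 6 fits that left out a library (adjusted p up to 0.11). Of the 24 partner genes called as deposited, 14 kept their call in every setting that changed a single choice.

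**Figure D5:**
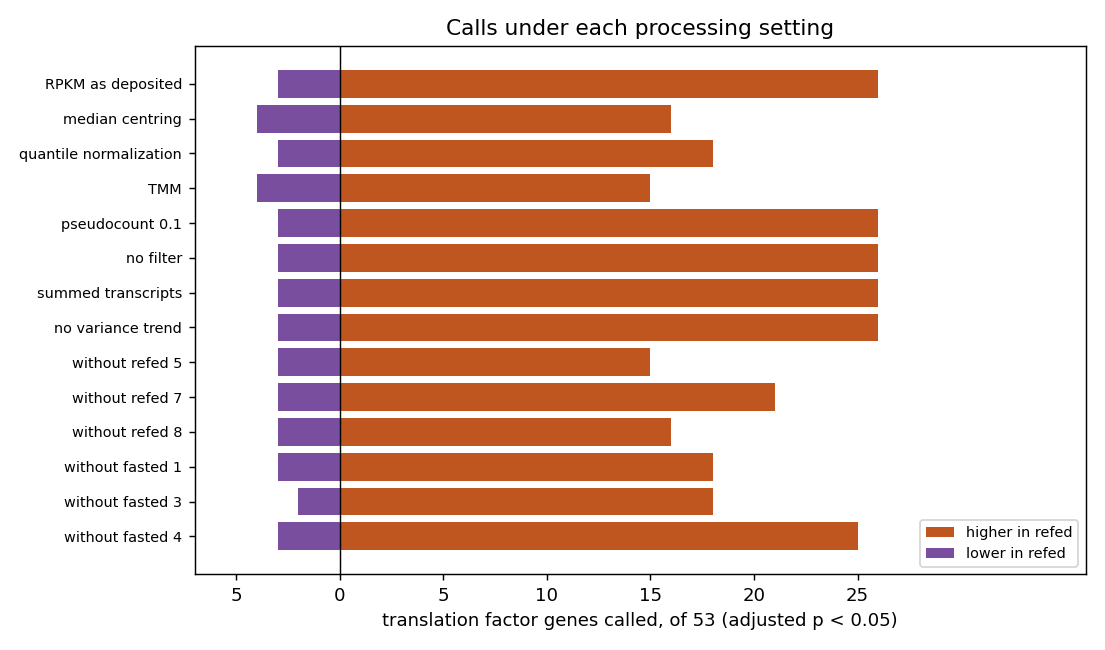
Number of the 53 factor genes called higher (right of 0) and lower (left of 0) in refed liver under each processing setting (x axis: genes with adjusted p under 0.05; rows: RPKM as deposited, other scalings, pseudocount, filter, transcript choice, variance model, and each library left out). The higher count ranges from 15 to 26 and the lower count from 2 to 4.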

How the data were processed

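Liver mRNA of 6 libraries was analysed, grouped by sample title. RPKM values on a linear scale, 1 row per RefSeq transcript, were computed by the authors, and the totals behind them are not stated in the material used. The same table carries a p-value, its −log10 and ratios of the group means, computed by the authors per the file headers and used for no call here. FastQC, STAR 2.6.0c, DESeq2 and mm9 appear in the submitters' processing notes, which assign them no task. A second deposited table lists the authors' called genes with read counts, log2 fold changes, p-values and false discovery rates, per the file headers. Its counts cover called genes alone, so no count test was run and full depth is unknown.

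Of 14659 transcripts, all reaching 1.00 RPKM in some library, 61 had no name and were left out, giving 10947 genes. Of several transcripts, the one with the highest mean stood for the gene (77 transcripts for the members). All 53 members passed the filter of a mean of at least 0.5 RPKM, as did 10890 genes. limma 3.58.1 with trended variances was fitted to log2(RPKM + 1), 3 refed against 3 fasted libraries, two-sided, with Benjamini-Hochberg adjustment and a threshold of 0.05. The fit was tested on simulated data. Ratios used exact permutation tests.

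Values in every library are given for called members with an absolute log2 fold change of at least 0.5, the 3 largest changes in each direction, the highest member of each complex and members opposed to their complex. Partner genes are given per library where called and past 0.5. Other values per library, the ratios and the promoter motifs were chosen after values were seen, and members and lists with earlier results of these data known. No source used here says whether counting kept strand, which leaves genes with overlapping or antisense neighbours uncertain. Alternatives were median centring, quantile and TMM scaling (edgeR 4.0.16), a pseudocount of 0.1, no filter, summed transcripts, no variance trend and each library left out.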

Additional observations from a re-analysis of the deposited data

How the results depend on the processing

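The count of members higher in refed liver was 26 as deposited, 16 after median centring, 15 with TMM and 18 with quantile normalization. Leaving out one library at a time gave 15 to 25 higher and 2 to 3 lower members, with 19.8% to 25.2% of all genes tested called higher, against 26.4% with every library. Doing so after centring, an alternative chosen after seeing the data, gave 12, 13 and 13 higher without refed 5, 7 and 8, 13, 11 and 15 without fasted 1, 3 and 4, and 3 to 4 lower, with 14.8% to 18.5% of all genes called higher, against 20.1% with every library. Changing the pseudocount, the filter, the transcript choice or the variance model left 26 and 3. Of the 26 and 3, 13 higher and 2 lower members (Eif1 and Eif4b) kept their call in every setting with a single choice changed. With centring and a library left out together, 11 and 2 also did, and Eif4a1 and Eif4e did not. No called member changed direction in any setting. The median log2 fold change of the members ranged from 0.16 to 0.29. The cause of these differences was not tested, but centring and TMM lower the level of the refed libraries relative to the fasted ones by construction. No paired analysis was possible because the groups share no replicate number. Full depth is unknown, so its part in the precision of low members was not tested. Eif4e3, the lowest member, had the largest SE (0.23) of the 53. With 3 libraries per group a ratio cannot reach an exact p below 0.1.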
